A study of Mus musculus with 24 samples.

Results

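The genes described here are 10 mouse genes of the endoplasmic reticulum (ER) that assist protein folding or mark the unfolded protein response (UPR): Hspa5, Hsp90b1, Dnajb9, Xbp1, Edem1, Herpud1, Sdf2l1, Pdia4, Calr and Creld2. They were taken by gene symbol, as 10 of the 56205 gene rows of the count table, and all 10 passed the filter on low counts, which left 14109 genes for testing. Whole livers of C57BL/6J mice were compared after 20 weeks on an MCD (methionine-choline deficient) diet, a kind of diet used to model steatohepatitis with fibrosis, or on a control diet, with 12 libraries of poly(A) RNA per diet. The study's methods describe it as high in fat, whereas its results text calls the model CDAHFD, a choline-deficient diet with defined amino acids and high fat. The label's name is kept here, and which composition the animals received was not settled. All animals shared strain, tissue and time on diet. Males and females were used on both diets, and since the sex of each library is not labelled, the libraries of a diet were taken as 1 group. Nothing in the labels names a litter, cage or sequencing batch.

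Secreted and membrane proteins fold inside the ER, where chaperones of the Hsp70 and Hsp90 families, lectin chaperones and disulfide isomerases bind them, and proteins that fail to fold are returned to the cytosol for ER-associated degradation (ERAD). When unfolded protein accumulates, the sensors IRE1 (gene Ern1), ATF6 and PERK (gene Eif2ak3) start the UPR. IRE1 and ATF6 act largely through the transcription factors XBP1 and cleaved ATF6, which induce chaperone and ERAD genes through ER stress response elements in their promoters, whereas PERK slows translation and favours ATF4 and CHOP (gene Ddit3). Hepatocytes secrete most plasma proteins and have an extensive ER.

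The promoters of the 10 genes were searched for exact matches to the element through which the chaperone genes are known to be induced. Sites that depart from its fixed letters were not counted, and the function of a match was not tested. The ER stress response element (ERSE) was searched as CCAAT, then 9 bases of any kind, then CCACG, on both strands, in the window from 250 bases before to 50 bases after each RefSeq transcription start (GRCm38.p6). Of the 10 genes, 4 held at least 1 ERSE in this window (Hspa5, Hsp90b1, Calr and Creld2), against 0.119% of all 32851 promoters in the RefSeq table. Hsp90b1 held 2 of them, at bases -212 to -194 and -107 to -89 from the start, Hspa5 held 1 at -65 to -47, Calr 1 at -162 to -144 and Creld2 1 at -126 to -108. Herpud1 held the shorter ERSE-II (ATTGG, any base, CCACG) at -52 to -42, which 0.0365% of all promoters hold, and it was the gene of the 10 with a match to the ATF4 composite element TGATGNAA (-112 to -105; 3.97% of all promoters). The 10 genes are textbook targets of ATF6 and XBP1, so their number with an ERSE is a description of the choice. The 250 bases before the start are printed below for these 5 genes and for Edem1 and Sdf2l1, which had the largest fall and the rise among the 10, with capitals marking ERSE, ERSE-II and ATF4 composite matches. They lie at chr2:34771840-34772089 on the plus strand (Hspa5, ENSMUSG00000026864), chr10:86705445-86705694 on the minus strand (Hsp90b1, ENSMUSG00000020048), chr8:84846932-84847181 on the minus strand (Calr, ENSMUSG00000003814), chr15:88819396-88819645 on the plus strand (Creld2, ENSMUSG00000023272), chr8:94386179-94386428 on the plus strand (Herpud1, ENSMUSG00000031770), chr6:108828391-108828640 on the plus strand (Edem1, ENSMUSG00000030104) and chr16:17132384-17132633 on the minus strand (Sdf2l1, ENSMUSG00000022769).
Hspa5: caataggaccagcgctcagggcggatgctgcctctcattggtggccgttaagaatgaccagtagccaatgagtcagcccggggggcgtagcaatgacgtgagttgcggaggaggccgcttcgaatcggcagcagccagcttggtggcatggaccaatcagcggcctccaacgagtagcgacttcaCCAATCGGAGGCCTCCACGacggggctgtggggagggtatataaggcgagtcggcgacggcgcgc
Hsp90b1: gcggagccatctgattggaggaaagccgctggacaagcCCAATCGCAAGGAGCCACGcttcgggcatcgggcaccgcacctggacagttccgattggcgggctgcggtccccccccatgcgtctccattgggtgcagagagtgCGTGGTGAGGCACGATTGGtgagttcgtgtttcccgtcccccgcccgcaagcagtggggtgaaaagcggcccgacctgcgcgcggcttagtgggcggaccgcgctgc
Calr: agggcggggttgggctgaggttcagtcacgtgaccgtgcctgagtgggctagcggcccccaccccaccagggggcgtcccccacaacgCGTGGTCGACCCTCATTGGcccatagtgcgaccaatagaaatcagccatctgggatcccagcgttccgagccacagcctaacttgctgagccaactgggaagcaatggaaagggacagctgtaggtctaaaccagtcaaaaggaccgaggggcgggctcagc
Creld2: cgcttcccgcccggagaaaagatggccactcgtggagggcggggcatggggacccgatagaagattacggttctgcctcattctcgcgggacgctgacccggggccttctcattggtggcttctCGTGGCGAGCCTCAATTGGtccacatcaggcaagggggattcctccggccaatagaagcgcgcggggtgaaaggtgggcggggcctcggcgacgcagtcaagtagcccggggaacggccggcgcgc
Herpud1: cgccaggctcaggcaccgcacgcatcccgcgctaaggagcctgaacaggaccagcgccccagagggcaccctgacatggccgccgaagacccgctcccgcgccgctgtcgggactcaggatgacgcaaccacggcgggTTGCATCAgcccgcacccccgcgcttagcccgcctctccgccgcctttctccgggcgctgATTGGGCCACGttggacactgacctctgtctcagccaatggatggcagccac
Edem1: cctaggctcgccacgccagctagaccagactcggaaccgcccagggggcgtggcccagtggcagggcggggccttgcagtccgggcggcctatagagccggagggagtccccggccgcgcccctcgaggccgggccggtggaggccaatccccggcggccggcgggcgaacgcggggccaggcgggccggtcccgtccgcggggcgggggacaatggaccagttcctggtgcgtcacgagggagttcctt
Sdf2l1: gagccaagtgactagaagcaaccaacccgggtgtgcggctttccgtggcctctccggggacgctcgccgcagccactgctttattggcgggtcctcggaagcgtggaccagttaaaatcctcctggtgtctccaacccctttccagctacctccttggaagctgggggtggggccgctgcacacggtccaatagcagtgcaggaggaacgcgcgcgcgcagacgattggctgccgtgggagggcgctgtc

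Edem1, Sdf2l1, Dnajb9, Pdia4 and Xbp1 held no exact match to ERSE or ERSE-II in the window. The letters CCACG alone, which are part of both elements, were found for 9 of the 10 genes and in 32.8% of all promoters. CCAAT, which ERSE contains and ERSE-II holds on the other strand, was likewise found for 9 of 10 and in 37.4% of all promoters. The XBP1 binding core, searched as TGACGTGG alone, was found for 0 of the 10 and in 0.676% of all promoters. Forms with another last base, such as one in the Hspa5 sequence above, were not counted. Xbp1 was the gene with neither CCACG nor CCAAT in its window.

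The libraries were of similar depth, with 16793207 to 24915175 counts in control and 16388650 to 24577848 in MCD. The TMM factors, which scale libraries to each other, were 0.642 to 0.973 in control and 1.07 to 1.26 in MCD libraries, without overlap, and each change is given on the TMM scale and set beside the median of all genes. Control replicate 12 stood apart, with a median absolute deviation from its group of 0.634 on the log2 scale against 0.160 to 0.365 in the other control libraries. The changes of the 10 genes, their ratios and the counts of each list of ER and protein folding genes are given with and without it. Of 10 hepatocyte markers, 5 were called in MCD, all of them lower, and their summed level was 101921 to 221062 CPM (counts scaled to a common library size) in control and 82656 to 116432 in MCD, with no marker at 0. Called higher were 7 of 8 macrophage markers (the other, Clec4f, was lower), 6 of 6 of cholangiocytes, 5 of 8 of lymphocytes and 5 of 5 of proliferation. Called lower were 5 of 6 of endothelium. Of all genes 19.2% were called higher and 19.1% lower. With libraries scaled by total counts alone these shares were 32.2% and 6.01%. The marker counts are on the TMM scale with control replicate 12 included, and are not given on total counts. Of 6 tested plasma cell markers edgeR called 0 (0 at an unadjusted p below 0.05, and DESeq2 called 1). In whole liver, fewer cells of a type and less RNA per cell cannot be told apart, and the part of cell composition in the values below was not tested.

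The first comparison asked whether the diet changed the expression of the 10 genes. A gene was called at an FDR of 0.01 or less, over all genes tested by edgeR's quasi-likelihood test, with an absolute log2 fold change above 0.5. In MCD livers 3 of the 10 were called lower, namely Edem1, Hsp90b1 and Dnajb9, and 1 was called higher, Sdf2l1. The call of Dnajb9 was lost in 8 of 9 other fits. Of all 14109 genes 38.3% were called, 19.1% lower and 19.2% higher, so a share of 4 in 10 is close to the background. Without the fold limit 6 of the 10 were lower, adding Hspa5, Pdia4 and Calr, where 29.9% of all genes were. The median log2 fold change of the 10 genes was -0.363, against -0.1 over all genes. With total counts alone as the scaling, edgeR called 1 higher and 0 lower (2 of the 10 were lower at an unadjusted p below 0.05), where 32.2% of all genes were called higher and 6.01% lower, and the median of the 10 was 0.015 against 0.268 over all genes. Another scaling of the libraries shifts all genes nearly alike, so the distance from the median gene (-0.263 for the 10 on the TMM scale) is close to fixed by construction and is no check of a change. Without control replicate 12 the calls were again 3 lower and 1 higher, of the same 4 genes.

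**Figure D1:**
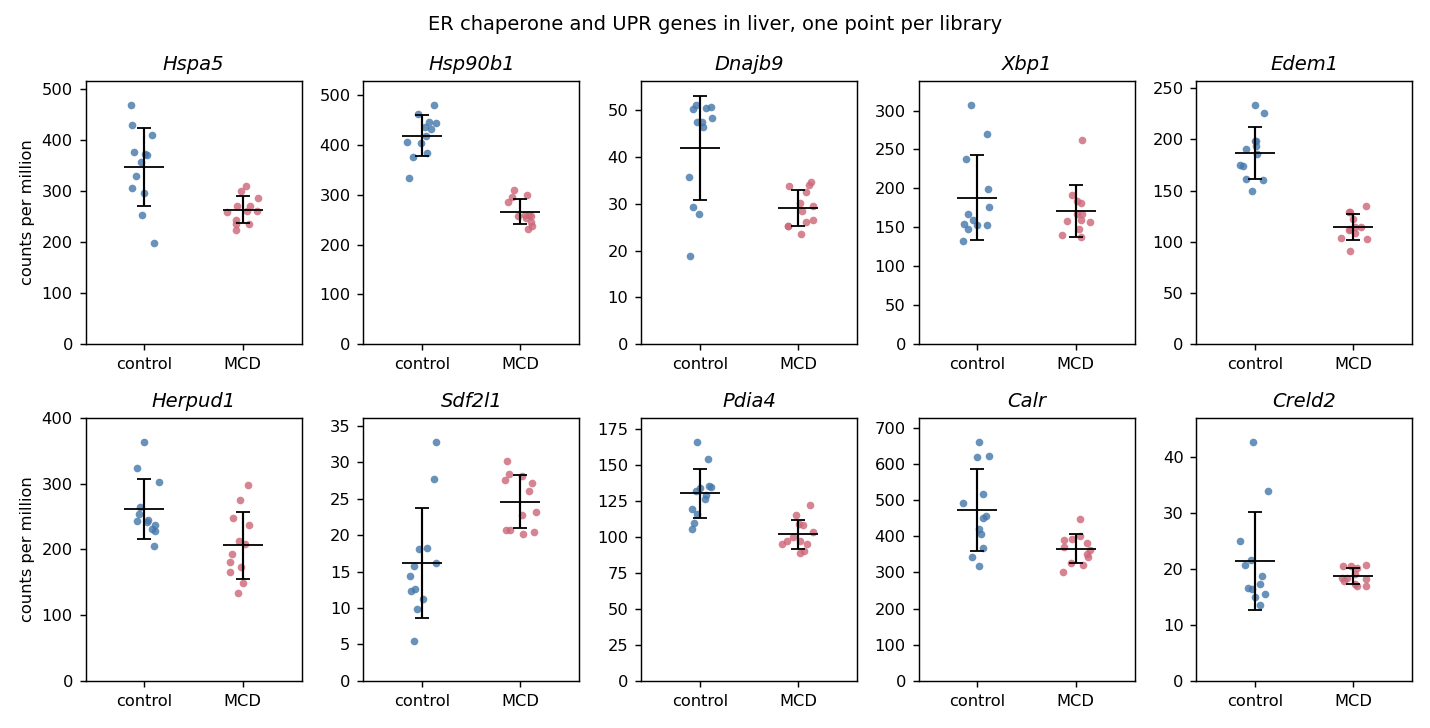
Level of each of the 10 genes in CPM (vertical axis, from 0) in control and MCD livers, 1 point per library, with the mean and SD (n = 12 per diet). Hsp90b1 and Edem1 show no overlap between the diets on this TMM scale, and Sdf2l1 and Creld2 spread more widely among control than among MCD livers.

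On the TMM scale Hspa5, Hsp90b1, Dnajb9, Calr and Pdia4 had lower means in MCD livers, to different degrees. Hspa5, which encodes BiP, the Hsp70 chaperone of the ER and the partner that holds the UPR sensors inactive, had a lowest, median and highest level of 199, 364 and 469 CPM in control and of 224, 262 and 309 CPM in MCD. The diets overlapped, and all 12 MCD libraries lay below the control median. The fitted log2 change was -0.40 (SE 0.11, 95% confidence interval -0.62 to -0.18, edgeR FDR 0.00185), within the fold limit, so it was not called. Without control replicate 12 it was -0.36 (FDR 0.00416), and on total counts alone it was -0.027 (FDR 0.823).

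Hsp90b1, which encodes GRP94, the Hsp90 chaperone of the ER, ran from 333 through a median of 425 to 481 CPM in control and from 232 through 259 to 309 CPM in MCD. On the TMM scale every MCD library lay below every control library, as was so for 4.88% of all genes tested (14.4% in either direction). Hsp90b1 fell by 36.4% (log2 fold change -0.65, SE 0.069, edgeR FDR 8.96e-09). The fall was -0.62 without control replicate 12. On total counts alone it was -0.29, within the fold limit.

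Dnajb9, which encodes ERdj4, a J-domain co-chaperone of BiP, was a low-abundance member, with 248 to 1038 counts per control library and 449 to 952 per MCD library. In control livers it was lowest at 18.8 CPM, had a median of 47.5 and reached 51.1, while in MCD livers it ran from 23.6 through 28.9 to 34.6 CPM. The lowest control value was that of replicate 12, and without it control livers started at 27.7 CPM, still within the MCD range. Dnajb9 fell by 30.6% (log2 fold change -0.53, SE 0.13, edgeR FDR 0.00104), and by 0.56 on the log2 scale without control replicate 12 (FDR 2.68e-05). This call sat at the fold limit and was lost when any of 8 libraries was left out, and over the 24 leave-one-out fits the value ran from -0.57 to -0.46. It was also lost in 8 of the 9 fits with another scaling, filter, tool or covariate, and kept with the sex-linked score, and on total counts alone it was -0.18 (FDR 0.296).

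Calr encodes calreticulin, the soluble lectin chaperone that retains glycoproteins until they fold. It ran from 317 through 454 to 662 CPM in control and from 302 through 366 to 447 CPM in MCD, with all MCD libraries below the control median and 1 below every control library. The change on the log2 scale was -0.37 (SE 0.11, edgeR FDR 0.00474), not past the fold limit. Control replicate 12 held the highest level, and without it the value was -0.28 (FDR 0.0149), no longer past the FDR limit. Its sign turned on total counts alone, to 0.016 (FDR 0.882).

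Pdia4, or ERp72, a protein disulfide isomerase, had 106, 131 and 166 CPM as its lowest, median and highest control level and 88.8, 98.8 and 122 CPM in MCD. Here 8 of the 12 MCD libraries lay below every control library. Its log2 change was -0.35 (SE 0.074, edgeR FDR 0.000186), past the FDR limit but within the fold limit, as it was without control replicate 12 (-0.32). On total counts alone the sign turned, to 0.016 (FDR 0.857), so a difference beyond the spread between libraries was seen on the TMM scale and not on total counts.

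Sdf2l1, a small ER protein that works with BiP and its J-domain partners, went the other way. Control livers ran from 5.53 through 15.1 to 32.8 CPM and MCD livers from 20.1 through 24.6 to 30.2 CPM, on 90 to 481 and 437 to 818 counts per library. All 12 MCD libraries lay above the control median, but none lay above the highest control library, replicate 1. Sdf2l1 was 1.52-fold higher in MCD (log2 fold change 0.60, SE 0.19, edgeR FDR 0.00628). The call was kept without control replicate 12 (0.73) and on total counts alone (1.01), and was lost at the FDR limit when control replicate 4, 5, 7 or 9 was left out (FDR 0.0115, 0.0126, 0.0127 and 0.0108).

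Creld2, a secreted and ER-resident protein with disulfide isomerase-like activity and one of the more sensitive markers of ER stress, did not pass the test. It ran from 13.6 through 18.1 to 42.8 CPM in control and from 16.9 through 18.4 to 20.7 CPM in MCD. Its fitted log2 change was -0.19 (SE 0.15, 95% confidence interval -0.49 to 0.11, edgeR FDR 0.268). The control maximum was again replicate 12, without which the value was -0.019, and on total counts alone it was 0.22 (FDR 0.0868).

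Of the ERAD members, Edem1, which extracts mannose-trimmed glycoproteins from the folding cycle for degradation, had the largest fall of the 10. Its levels were 150, 188 and 234 CPM at the lowest, median and highest control library and 90.6, 113 and 135 CPM in MCD. On the TMM scale the diets did not overlap, with MCD the lower, as for 4.88% of all genes. Edem1 fell by 38.9% (log2 fold change -0.71, SE 0.079, edgeR FDR 1.99e-08). It was -0.70 without control replicate 12, and on total counts alone it was -0.36, within the fold limit.

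Herpud1, a membrane protein that organises the ERAD ligase complex, ran from 205 through 244 to 364 CPM in control and from 134 through 201 to 298 CPM in MCD. The diets overlapped, with 6 MCD libraries below every control library and 3 above the control median. Its log2 fold change, -0.34 (SE 0.12, edgeR FDR 0.0154), did not pass the FDR limit, nor did it without control replicate 12 (-0.32), and on total counts alone it was 0.013 (FDR 0.928). Herpud1 was the member whose spread was wider in MCD than in control livers.

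Xbp1, the transcription factor whose mRNA is spliced by IRE1, ran from 132 through 163 to 307 CPM in control and from 138 through 163 to 262 CPM in MCD. The medians were alike and 6 MCD libraries lay on each side of the control median. On the log2 scale the change was -0.14 (SE 0.13, 95% confidence interval -0.41 to 0.13, edgeR FDR 0.371). It was -0.095 without control replicate 12, and its sign turned to 0.25 on total counts alone. Counts per gene do not separate spliced from unspliced Xbp1.

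**Figure D2:**
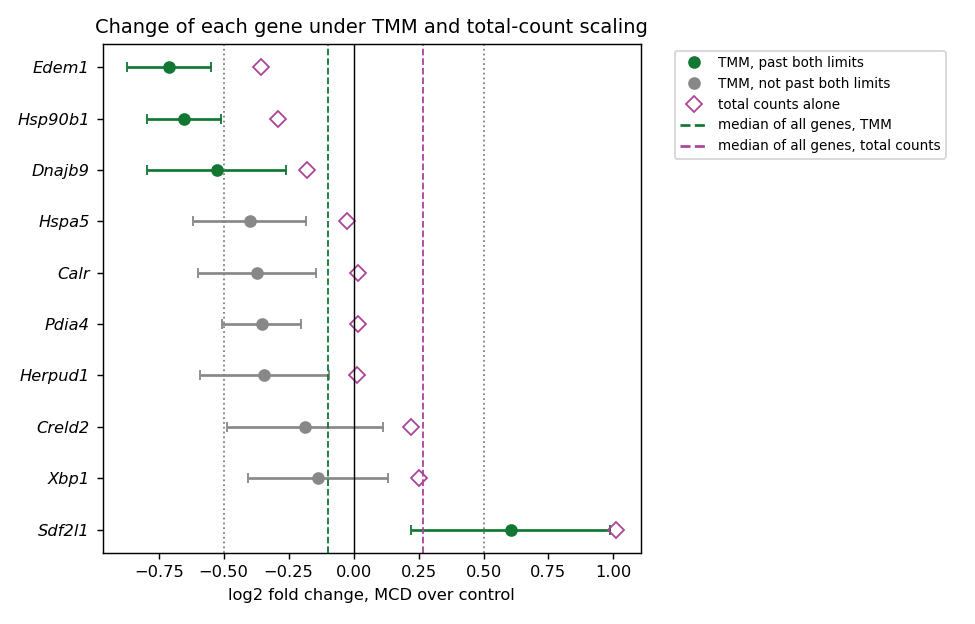
Log2 fold change of MCD over control for each gene (horizontal axis) with its 95% confidence interval on the TMM scale (filled circles, green where the gene passed the FDR limit of 0.01 and the fold limit of 0.5) and on total counts alone (open diamonds). Dashed lines mark the median of all genes on each scale, -0.1 and 0.268, and dotted lines the fold limit.

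Levels can be set side by side between genes only per transcript length. On a TPM scale, made from the counts and the longest annotated transcript and without TMM factors, Calr was the highest of the 10 in control livers, at 356 ± 52.4 TPM (SD, n = 12). Herpud1 (225 ± 44.3) and Hsp90b1 (219 ± 36.7) followed and did not differ beyond their spread, nor did Hspa5 (157 ± 31.0) and Xbp1 (146 ± 32.9). Pdia4 stood at 90.8 ± 12.4 TPM and Edem1 at 52.4 ± 12.3. Dnajb9 (29.1 ± 8.48), Creld2 (25.2 ± 5.68) and Sdf2l1 (23.5 ± 8.27) were lowest and overlapped one another. In MCD livers Sdf2l1, at 47.7 ± 7.96 TPM, had a higher mean than Edem1, at 40.4 ± 4.58, a difference within their SDs. Edem1 and Hsp90b1 overlapped between the diets on this scale. Edem1 ran from 27.1 to 75.5 TPM in control and from 32.1 to 47.4 in MCD, and Hsp90b1 from 133 to 270 and from 155 to 199.

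The spread among livers also differed by diet. For 9 of the 10 genes the SD of log2 CPM was larger in control than in MCD, from 1.08 times (Hsp90b1) to 4.53 times (Creld2), with Herpud1 the exception at 0.668. Over all tested genes the median of this ratio was 1.81, and without control replicate 12 it was 1.48. Sdf2l1 (3.09), Dnajb9 (2.42), Hspa5 (2.39) and Calr (2.19) also exceeded the median gene. Without control replicate 12 Creld2 was at 3.45 and Sdf2l1 at 2.93. Control replicate 1 had the highest Hspa5, Hsp90b1, Sdf2l1 and Pdia4 of its diet, and control replicate 3 had the lowest Hspa5, Xbp1, Pdia4 and Calr together with the highest Edem1.

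A second comparison set each gene against a related gene in the same library, so that the scaling of libraries largely cancels. The difference of the log2 ratio between the diets was tested by permuting the diet labels (two-sided, 100000 resamples, adjusted over 10 pairs). At an adjusted p of 0.01 or less, 5 of the 10 ratios differed between the diets. Of all genes 38.3% were called between the diets, and the share of other gene pairs with a differing ratio was not computed. A ratio shows unequal change of its 2 genes and not which of them moved.

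Edem1 fell against Edem2, its ERAD paralog. The mean log2 ratio was 1.54 ± 0.411 in control and 0.327 ± 0.184 in MCD (SD, n = 12), a difference of -1.22 (SE 0.13, permutation adjusted p = 0.00015), and the diets did not overlap. Edem2 itself was at 0.49 (log2 fold change, edgeR FDR 4.34e-05), just inside the fold limit, and was called higher without control replicate 12 (0.60). Hsp90b1 fell against Hsp90ab1, the cytosolic Hsp90, by 0.38 on the log2 scale (SE 0.078, permutation adjusted p = 0.000533), with 11 of 12 MCD libraries below the control median.

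Pdia4 fell against Pdia3, the disulfide isomerase that serves calnexin and calreticulin, by 0.27 (SE 0.056, permutation adjusted p = 0.00015), with all 12 MCD libraries below the control median. Sdf2l1 rose against its paralog Sdf2 by 0.59 (SE 0.16, permutation adjusted p = 0.00195), and Xbp1 rose against Atf6 by 0.67 (SE 0.18, permutation adjusted p = 0.00242), each with all 12 MCD libraries above the control median. Of this last pair Atf6 was called lower on its own (log2 fold change -0.80) and Xbp1 was not called. Without control replicate 12 the differences of these 5 pairs, in the order given, were -1.30, -0.42, -0.26, 0.60 and 0.77, and all were past the threshold.

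The ratio of Hspa5 to Hspa8, the constitutive cytosolic Hsp70, differed by -0.0061 between the diets (SE 0.12, permutation adjusted p = 0.959). Hspa8 was itself at -0.38 (log2 fold change, SE 0.096, edgeR FDR 0.00127), close to the -0.40 of Hspa5. Herpud1 against Herpud2 (-0.053, SE 0.13), Calr against Canx, the membrane-bound lectin chaperone (-0.14, SE 0.092), and Dnajb9 against Dnajb1 (-0.26, SE 0.15) were not past the threshold either, with permutation adjusted p of 0.76, 0.188 and 0.111. Dnajb9 against Dnajb1 passed it without control replicate 12, at -0.38 (permutation adjusted p = 0.00182). Without that library Hspa5 against Hspa8 was at -0.0082, Herpud1 against Herpud2 at -0.0053 and Calr against Canx at -0.091, none past the threshold. Creld2 against Creld1 differed by 0.32 (SE 0.11, permutation adjusted p = 0.0129) and passed when control replicate 12 was left out, at 0.35 (permutation adjusted p = 0.00617).

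**Figure D3:**
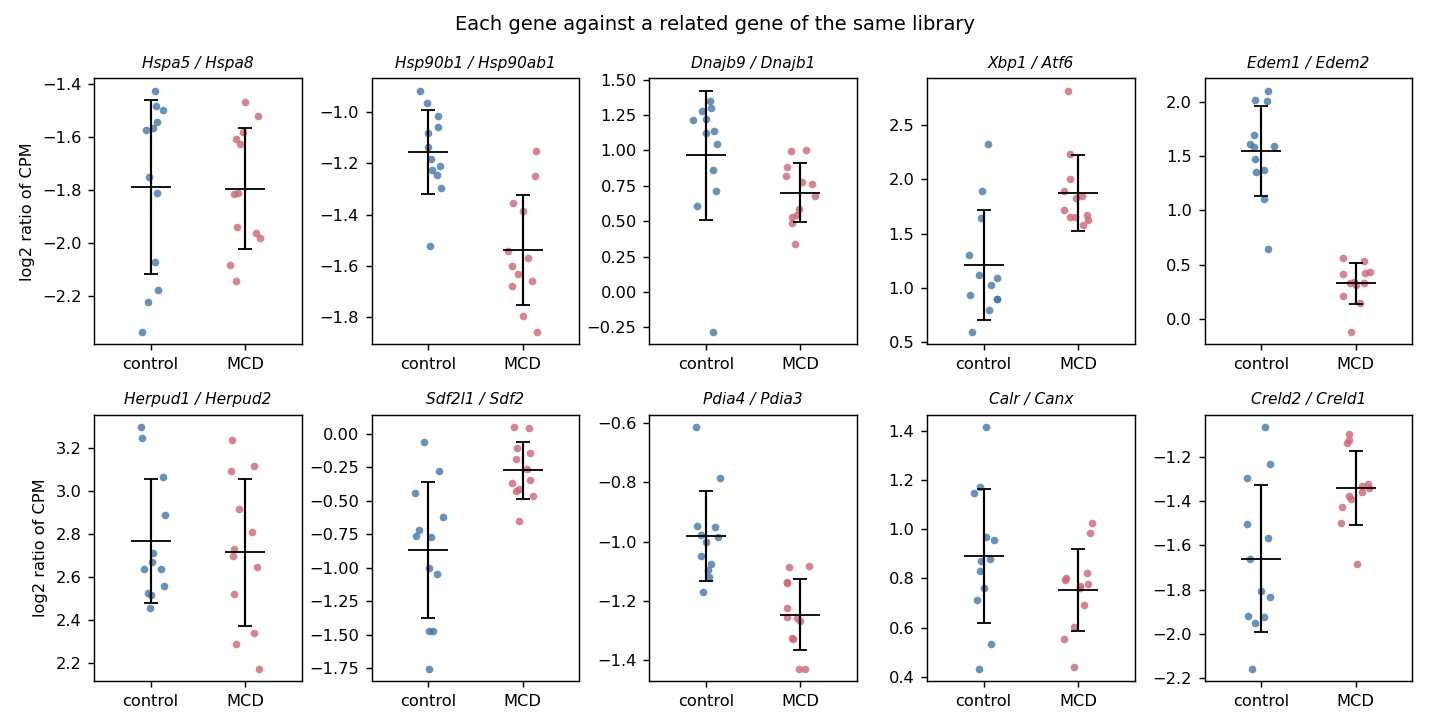
Log2 ratio of the CPM of each gene to that of a related gene in the same library (vertical axis), 1 point per library, with mean and SD (n = 12 per diet). Edem1 over Edem2 separates the diets without overlap, and Hspa5 over Hspa8 lies at the same mean in both.

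The 10 genes were then placed among other genes of the ER and of protein folding. Of 122 tested genes on 7 other ER lists, 14 were called higher and 13 lower in MCD, shares of 11.5% and 10.7% where all genes gave 19.2% and 19.1%, and their median log2 fold change was -0.075, against -0.1 over all genes. The numbers on total counts alone were 40 higher and 2 lower, where 32.2% of all genes were higher and 6.01% lower. With upper-quartile factors they were 25 higher and 7 lower, where 23.1% of all genes were higher and 12.1% lower, and without control replicate 12 they were 19 and 13.

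Of the sensors and transcription factors upstream of the 10 genes, 11 were tested besides Xbp1, and 1 was called higher and 2 lower, where 19.2% and 19.1% of all genes were. With total counts alone the balance turned to 2 higher and 1 lower (32.2% and 6.01% of all genes). Without control replicate 12 it was 1 higher and 2 lower (21.5% and 17.9%). Ern1, the IRE1 sensor, ran from 28.2 through 59.8 to 89.4 CPM in control and from 25.6 through 32.4 to 43.3 CPM in MCD, and fell by 0.91 on the log2 scale (SE 0.13, edgeR FDR 6.96e-07). Atf6 ran from 39.7 through 84.3 to 95.9 CPM in control and from 37.1 through 46.4 to 50.6 CPM in MCD, and fell by 0.80 (SE 0.096, edgeR FDR 6.83e-08). Both overlapped between the diets through control replicate 12, without which the lowest control levels were 53.9 CPM for Ern1 and 67.8 CPM for Atf6, above every MCD library. On total counts alone Ern1 was still called, at -0.57, and Atf6 was at -0.46, inside the fold limit. Without control replicate 12 they were at -0.95 and -0.83, both called. Eif2ak3, the PERK sensor, was not past the test (-0.17, SE 0.12, edgeR FDR 0.222).

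The called riser among these factors was Creb3l1, an ER membrane transcription factor known for driving collagen secretion, at 1.30 (SE 0.21, edgeR FDR 5.63e-06). Every MCD library lay above every control library, as for 9.5% of all genes. Serpinh1, the collagen-specific chaperone HSP47, rose by 1.83 (SE 0.17, edgeR FDR 6.6e-10), also without overlap. Among oxidases of the ER, Gpx7 rose by 2.02 (SE 0.18) and Gpx8 by 1.30 (SE 0.21). Of 8 mesenchymal markers 6 were called higher and 1 lower, where 19.2% and 19.1% of all genes were. Their summed level was 209 to 559 CPM in control and 650 to 1062 CPM in MCD, with no marker at 0. When control replicate 12 was left out, Creb3l1 was at 1.28, Serpinh1 at 1.82, Gpx7 at 2.09 and Gpx8 at 1.28, all called. The part of these cells in the rise of the 4 genes was not tested.

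In each list below the counts stand against 19.2% of all genes called higher and 19.1% called lower. Among the Hsp70 and Hsp90 machinery without the 10 genes, 1 of 15 tested genes was called higher (Serpinh1) and 2 lower, Ficd (-0.65), which modifies BiP, and Sec63 (-0.56), the J-domain partner of BiP at the translocon. In the calnexin and calreticulin cycle 2 of 9 were called, both lower, the cargo receptor Lman1 (-0.79) and the glucosidase subunit Ganab (-0.56). Both had no overlap between the diets on the TMM scale, as for 4.88% of all genes. Of 19 disulfide isomerases and oxidases other than Pdia4, 3 were called higher (Gpx7, Gpx8 and Erp29, at 0.53) and 2 lower (Tmx4, -0.66, and Tmx2, -0.50). The ERAD list without Edem1 and Herpud1 held 1 called higher, Derl3 (1.04), and 4 lower of 26 tested, with Sel1l (-0.86), Marchf6 (-0.77) and Derl2 (-0.63) the lowest. Sel1l is the scaffold and Marchf6 a ligase of ERAD. Of the translocon and signal peptidase genes, 1 of 29 was called, Sec11c, which was higher (0.67). This count was 14 higher on total counts alone (32.2% of all genes), 7 with upper-quartile factors (23.1%), 3 with relative log expression factors (20.4%) and 4 without control replicate 12 (21.5%). Without that library the ERAD list held 2 higher and 4 lower, and the counts of the other 3 lists in this paragraph were as with it. With total counts alone the ERAD list went from 1 higher and 4 lower to 4 higher and 1 lower, the disulfide isomerases and oxidases from 3 and 2 to 6 and 0, the Hsp70 and Hsp90 machinery from 1 and 2 to 2 and 0, and the calnexin and calreticulin cycle from 0 and 2 to 0 and 0, so the balance of calls in these lists depends on the scaling.

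In the list for the PERK, ATF4 and CHOP arm most of the called genes were higher. Of its 16 tested genes 7 were called higher (43.8%, against 19.2% of all genes) and 1 lower, and its median log2 fold change was 0.517. The counts were 9 higher and 0 lower with upper-quartile factors (23.1% and 12.1% of all genes), 12 and 0 on total counts alone (32.2% and 6.01%), and 8 and 1 without control replicate 12 (21.5% and 17.9%). Asns, the asparagine synthetase induced by ATF4, rose by 4.06 (SE 0.68, edgeR FDR 1.05e-05) from 0.325 to 2.55 CPM in control to 1.53 to 43.6 CPM in MCD, and 6 of the 12 MCD libraries lay above every control library while the others overlapped with them. Atf3 rose by 3.65 (SE 0.23, edgeR FDR 1.93e-12), from a range of 1.17 to 6.39 CPM to one of 28.3 to 54.5 CPM. Nupr1 rose by 1.62 (SE 0.25) and Ddit3 by 0.58 (SE 0.13, edgeR FDR 0.000334). Ddit3 lay at 3.38 to 8.48 CPM in control and 5.26 to 8.56 CPM in MCD. The control maximum was replicate 12, without which the highest control level was 5.05 CPM, below every MCD library, and the change was 0.74 (edgeR FDR 2.97e-07). The exons of Ddit3 overlap genes on the opposite strand. Asns was at 4.12, Atf3 at 3.62 and Nupr1 at 1.63 without that library, all called. Atf4 itself was not called (0.28, SE 0.073, edgeR FDR 0.00168), and Ppp1r15b, a phosphatase subunit that restores translation, fell by 0.63, a call not made under either of these other scalings.

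Chaperones outside the ER gave a background for the 10 genes. Of 23 cytosolic chaperones 3 were called higher and 3 lower, with a median of -0.27, and of 12 mitochondrial chaperones and proteases 1 was called higher and 3 lower, with a median of -0.247. Over all genes 19.2% were higher and 19.1% lower, and the median was -0.1. In the cytosolic list Hspa1a (1.92), Cryab (1.74) and Hspa1b (0.68) rose and Hsph1 (-0.66), Dnaja1 (-0.57) and Fkbp4 (-0.54) fell. Hspa1a and Hspa1b are near-identical genes, so the split of reads between them is uncertain. In the mitochondrial list Trap1 (-0.60), Hspd1 (-0.54) and Afg3l2 (-0.52) fell and Htra2 (0.53) rose. Fkbp4 (-0.42) and Afg3l2 (-0.48) were not called without control replicate 12, and the counts were then 3 higher and 3 lower in the cytosolic list, where Hspa2 (-0.55, named after its values were seen) was added, and 1 and 2 in the mitochondrial list. On the TMM scale 4 genes of the mitochondrial list lay lower and 1 higher without overlap between the diets. Of the cytosolic list 2 lay lower, where 4.88% of all genes lay lower and 9.5% higher. Of the 10 ER genes 2 lay lower. The lower calls of both lists were lost on total counts alone.

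**Figure D4:**
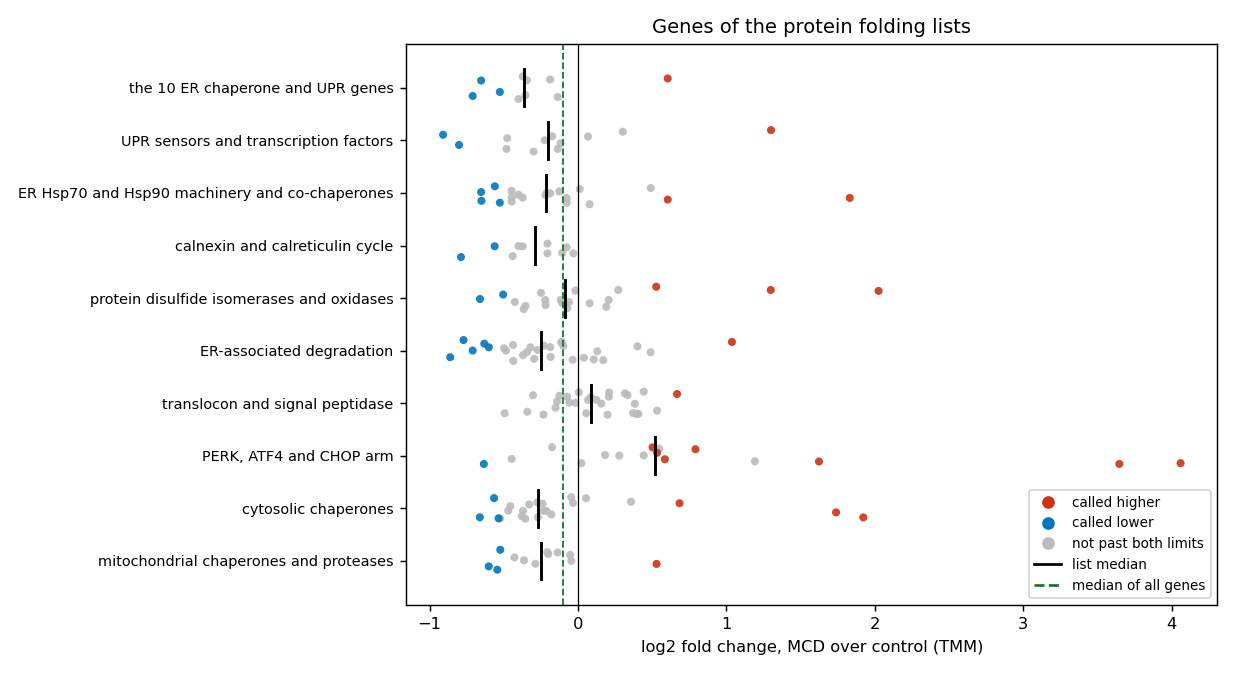
Log2 fold change of MCD over control on the TMM scale (horizontal axis) for every tested gene of each list, 1 point per gene, red where called higher, blue where called lower and grey otherwise. The black bar is the median of the list and the dashed line the median of all genes; the bar of the PERK, ATF4 and CHOP arm lies at 0.517 and that of the 10 genes at -0.363.

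The last comparison asked whether livers with more Hspa5 also had more of the other 9 genes, within each diet. Pearson's r and Spearman's rho of log2 CPM were computed for 18 relations, 9 in each diet, each with a two-sided permutation test adjusted over the 18. In control livers r was above 0 for 8 of the 9 genes and below 0 for Edem1. After adjustment 3 passed 0.05, namely Calr (r = 0.78, rho = 0.699), Xbp1 (r = 0.769, rho = 0.86) and Pdia4 (r = 0.739, rho = 0.65), each with a permutation adjusted p of 0.0371 for r. The share of all tested genes related to Hspa5 to this degree was not computed. The adjusted permutation p for rho was 0.0122 for Xbp1, 0.0681 for Calr and 0.0953 for Pdia4. All 3 calls were lost on total counts alone (r of 0.676 for Xbp1, 0.668 for Calr and 0.608 for Pdia4, permutation adjusted p from 0.104 to 0.155) and with residuals on the sex-linked score (r of 0.485, 0.588 and 0.635, permutation adjusted p from 0.371 to 0.374).

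Without the 2 control libraries farthest from the median of Hspa5, which were replicates 3 and 6, Xbp1 still passed on the TMM scale (r = 0.871, permutation adjusted p = 0.0117). Calr (r = 0.573, permutation adjusted p = 0.221) and Pdia4 (r = 0.633, permutation adjusted p = 0.172) no longer passed with these 10 libraries. Without control replicate 12, Calr had an r of 0.825 (permutation adjusted p = 0.0263), and Xbp1 (0.765) and Pdia4 (0.736) each missed the limit with a permutation adjusted p of 0.059. Edem1 had an r of -0.645 in control livers (permutation adjusted p = 0.0815), which passed with upper-quartile factors (-0.734, permutation adjusted p = 0.0421), and Sdf2l1 one of 0.677 (permutation adjusted p = 0.0772). Hsp90b1, another ER chaperone, had no relation to Hspa5 that 12 control livers could show (r = 0.0167, rho = 0.00699, permutation adjusted p = 0.958 and 0.991).

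In MCD livers 0 of the 9 relations passed after adjustment, and before adjustment 0 did by r and 1 by rho, that of Calr (r = 0.571, rho = 0.692, permutation p = 0.0531 and 0.0151). Without the 2 MCD libraries farthest from the median of Hspa5, replicates 2 and 8, Hsp90b1 passed by rho (0.855, permutation adjusted p = 0.0258) and not by r (0.67, permutation adjusted p = 0.164), against a rho of 0.434 and an r of 0.311 with all 12. Xbp1 had an r of 0.154 and Pdia4 one of 0.233 in the 12 MCD libraries. The difference in r between the diets was not tested, and Hspa5 ranged less widely in MCD livers. All values of a library share its scaling factor, and no labelled batch was given within which to repeat the relations.

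**Figure D5:**
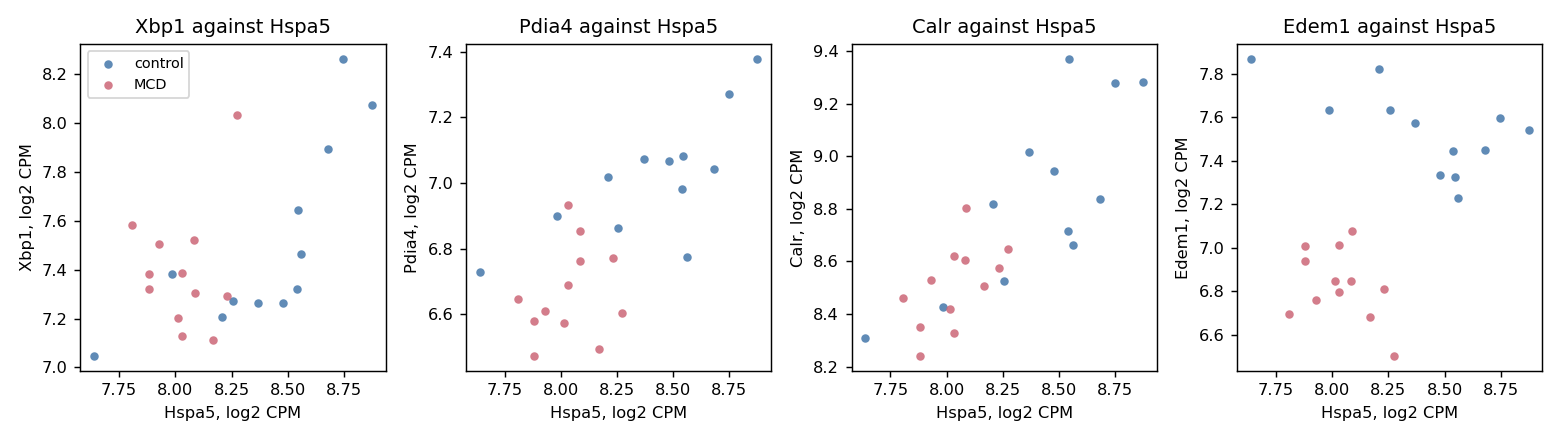
Log2 CPM of Xbp1, Pdia4, Calr and Edem1 (vertical axes) against that of Hspa5 (horizontal axis), 1 point per library, 12 per diet. In control livers Xbp1, Pdia4 and Calr rise with Hspa5 (r of 0.769, 0.739 and 0.78) and Edem1 has an r of -0.645, while MCD livers cover a narrower range of Hspa5.

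As a description, 14097 other tested genes were ranked (11 rows that repeat a gene symbol were left out) by the mean of their r with Hspa5 in the diets (n = 12 each). The closest was Manf, an ER stress-inducible secreted protein that binds BiP, with 0.907 in control and 0.862 in MCD, and Hyou1, the large ER Hsp70 that exchanges BiP nucleotides, was in place 10 with 0.834 and 0.808. Neither was called between the diets (Manf -0.08, edgeR FDR 0.665; Hyou1 -0.45, edgeR FDR 0.000974). Between them stood Gm10123, Gorasp2, 1110004F10Rik, Mettl1, Arf1, Dph3, Psmb5 and Sec13, with mean r from 0.862 to 0.827. Sec13 encodes a coat protein of vesicles that leave the ER, Arf1 a small GTPase that recruits coats at the Golgi, and Gorasp2 a Golgi stacking protein. Of the 10 genes Calr ranked highest, at place 192 of 14097 with a mean r of 0.676, and Edem1 lowest, at place 13389 with -0.509. Pdia4 stood at place 1203 and Xbp1 at place 1392, so many genes outside the 10 followed Hspa5 more closely.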

How the data were processed

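Poly(A) RNA sequencing of whole mouse liver was available for 24 libraries, 12 per diet. The authors deposited raw read counts per Ensembl gene with no normalization, 1 column per library, and 0 columns were left unused. The submitters' processing notes name bcl2fastq, STAR 2.7.3a and genome build mm10; the counting program, its annotation and its use of strand are not given for the mouse libraries. The study's supplement describes a TruSeq stranded kit and, with an alignment by that STAR version to a human reference, quantification by PISCES, and does not state whether either served for mouse liver. Symbols were taken by identifier from GENCODE mouse release M21 (51745 of 56205 rows; rows without a symbol held 0.0808% of counts), with later symbols for a few renamed genes. The exons of Hsp90b1, Dnajb9 and Pdia4 overlap those of small RNA or predicted genes. No pair of libraries was identical.

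Genes were kept with filterByExpr and compared between diets by edgeR 4.0.16 (glmQLFit, glmQLFTest, TMM factors, no covariate) in R 4.3.3, over all 24 libraries. FDR values are Benjamini-Hochberg adjusted over 14109 genes, and the call limits (0.01 and 0.5 on the log2 scale) are those the study used for human liver. SEs are the absolute log2 fold change over the square root of F. CPM values are TMM scaled, and log2 CPM used a prior count of 2. Ratios and relations were tested by 100000 permutations (numpy 2.4.6, scipy 1.17.1). The p-values measure the spread between the libraries of a diet. TPM values were computed here from counts and the longest M21 transcript. Promoters are those of RefSeq, build GRCm38.p6, the assembly that mm10 names, and 10 of 10 genes matched. In simulated counts of 13970 genes the edgeR fit recovered 82.5% of genes changed by 1 and 97.9% of those changed by 2 on the log2 scale, with 0 false calls. The simulation changed 200 genes, as many up as down, with no difference in library composition between the diets. It therefore cannot speak to the choice of scaling or to changes smaller than 1.

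The 10 genes, the lists, the pairs and the markers were chosen with earlier results of these data known. Named are the 10 genes, their partners, Ern1, Atf6, Eif2ak3, Atf4 and Ddit3, up to 3 called genes per list in each direction, and the 10 genes most like Hspa5.

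Alternatives were other scalings and filters, DESeq2 1.42.0, limma-voom (limma 3.58.1), other limits, the replicate number as a block, a covariate of sex-linked expression, a prior count of 0.5, and leaving out each library. The limits without a fold requirement at an FDR of 0.01, and the Hspa5 relations without control replicate 12, were chosen after seeing the data. Figures were drawn with matplotlib 3.10.9.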

Additional observations from a re-analysis of the deposited data

How the results depend on the processing

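Edem1 and Hsp90b1 were called lower under all 9 other fits except total counts alone and in all 24 fits that each left out a library; Sdf2l1 was called higher in all 9 and lost its call without control replicate 4, 5, 7 or 9. Dnajb9 was called in the fit with the sex-linked score, and in the other 8 it was within the fold limit or the FDR limit (-0.53 to -0.18 over the 9). It also fell inside the fold limit without control replicate 1 (-0.46) and without MCD replicate 2, 3, 4, 8, 10, 11 or 12 (-0.50 to -0.46). The number of the 10 genes called lower was 0 with total counts alone, 7 when the fold limit was dropped and the FDR set at 0.05, 6 when it was dropped at 0.01, and 0 with a log2 limit of 1, where the number higher was also 0 (7 lower and 1 higher at an unadjusted p below 0.05). Under these limits 37%, 29.9% and 4.86% of all genes were lower and 26.5%, 22.5% and 13.2% higher. Leaving out a library gave 2 to 3 lower and 0 to 1 higher. Of the other ER genes, 25 were higher and 7 lower with upper-quartile factors, 40 and 2 with total counts alone, 31 and 43 with no fold limit at an FDR of 0.05, 25 and 37 with none at 0.01, and 8 and 0 with a log2 limit of 1, against the same shares of all genes (33 higher and 45 lower at an unadjusted p below 0.05). Leaving out a library gave 12 to 19 higher and 11 to 16 lower. Across all genes the median change moved up by 0.151 with upper-quartile factors, by 0.368 with total counts alone and by 0.12 without a filter, and the share of called genes that were higher was 50.2% on the TMM scale, 65.6% with upper-quartile factors and 84.3% with total counts alone.

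Signs that reversed were those of genes that had not been called. With total counts alone these genes were Xbp1 (0.25), Herpud1 (0.013), Pdia4 (0.016), Calr (0.016), Creld2 (0.22), Eif2ak3 (0.15), Canx (0.16), Pdia3 (0.27), Herpud2 (0.025), Hsp90ab1 (0.10) and Dnajb1 (0.15), and with upper-quartile factors Xbp1 (0.021) and Pdia3 (0.047). The ratios were past the threshold in 5 pairs with a prior count of 0.5 and with total counts alone and in 5 to 7 when a library was left out. Creld2 against Creld1 passed without control replicate 1, 6 or 12 or MCD replicate 9, and Dnajb9 against Dnajb1 without control replicate 12. Hspa5 against Hspa8 ran from -0.056 to 0.027 over these fits. The number of control relations with Hspa5 past 0.05 was 0 with total counts alone, 0 with residuals on the sex-linked score and 1 without control replicate 12. With upper-quartile factors it was 4, as Edem1 was added (r = -0.734, permutation adjusted p = 0.0421). Reversed were r with Hsp90b1 in control (-0.073 with total counts alone, -0.12 with upper-quartile factors), with Herpud1 in control (-0.0072, residuals) and with Dnajb9 in MCD (0.25, residuals). The cause of these changes was not tested.

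Replicate numbers are shared by the diets, but the deviations of libraries with the same number had an r above 0.1 for 8 of 12 pairs (-0.28 to 0.349; median 0.233, against -0.0592 for other pairs), and 2 of 12 correlated best with their own number, so the numbers were not taken to pair the libraries. With the replicate block 1 of the 10 genes was called higher and 2 lower, and 17 and 12 of the other ER genes.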
